A study of Homo sapiens with 8 samples.

Results

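The genes of mTORC1, the kinase complex by which cells match growth to their supply of amino acids, were followed in cells transduced with a DNMT3A mutant or with wild-type DNMT3A. The list holds 45 genes, chosen by name, among the 20453 gene IDs that each library lists. They fall into 9 steps, which run from the amino acid sensors over the GATOR complexes, the Rag GTPases, Ragulator, folliculin and the TSC complex to mTORC1 and its outputs. RNA-seq measured transcripts, and ribosome profiling measured footprints, the short pieces of mRNA that ribosomes shield from nuclease. The 8 libraries formed 4 groups of 2: mutant mRNA, wild-type mRNA, mutant footprints and wild-type footprints. The labels give transduction as the only treatment in all 4 groups. No vector, promoter, clone or number of cultures is named in the sources used here, and gene counts do not separate an introduced DNMT3A copy from the cells' own. The study's title links DNMT3A mutation in acute myeloid leukaemia with translation and the metabolism of branched-chain amino acids, and leucine, one of these, is a signal to mTORC1.

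All libraries carry the label THP-1, a line from a human acute monocytic leukaemia, and the markers went against it. Of 37 monocyte marker genes, 6 to 7 reached 10 CPM (counts scaled to a common library size with TMM factors) in an mRNA library. Those included FCGR2A (219 to 265 CPM), CD33 (60.5 to 70.4 CPM) and SPI1 (37.1 to 48.0 CPM). No count in any mRNA library was found for 13, among them S100A8, S100A9, CSF1R, FCN1 and MPO. Of 22 erythroid and megakaryocyte markers, 18 to 19 reached 10 CPM. Their summed level was 3295 to 3345 CPM in mutant and 3854 to 3889 CPM in wild-type mRNA libraries. Only 1 of 10 T and B cell markers and 0 of 10 fibroblast and endothelial markers reached 10 CPM in any mRNA library. The cells are therefore called by their label and genotype here, and the part of the marker difference in the results below was not tested. In bulk libraries, fewer cells of a type and less RNA per cell cannot be told apart. DNMT3A itself had 241 and 244 CPM in mutant mRNA libraries, against 291 and 294 CPM in wild-type mRNA libraries (log2 fold change -0.27 ± 0.05, edgeR adjusted p = 4.3e-06). Its footprints were 144 and 149 CPM in mutant libraries, against 138 and 154 CPM in wild-type libraries, and these ranges overlapped. Total counts lay between 3415999 and 4523475 in mRNA libraries and between 603360 and 1988513 in footprint libraries, with both mutant footprint libraries the shallowest. A floor of 3 counts equalled 0.673 to 0.887 CPM in mRNA and 1.55 to 4.92 CPM in footprint libraries. The footprint replicates differed by no more than counting noise (chi-square per degree of freedom 0.925 in mutant and 1.01 in wild-type cells), whereas mRNA replicates differed by slightly more (1.33 in mutant and 1.08 in wild-type cells). Whether the paired files are separate cultures or repeats of 1 library cannot be told, and the p-values below measure only the spread between these files.

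mTORC1 joins the kinase mTOR to the scaffold Raptor (RPTOR) and to MLST8 on the lysosome. Amino acids bring it there through the Rag GTPases, which sit on the Ragulator complex (LAMTOR1 to LAMTOR5). GATOR1 switches the Rags off, GATOR2 restrains GATOR1, and KICSTOR holds GATOR1 on the lysosome. Sestrins bind leucine and CASTOR1 binds arginine, and without these amino acids both hold GATOR2 back. SLC38A9 reports arginine inside the lysosome. Growth factors act through the TSC complex, which inactivates RHEB, the GTPase that turns mTORC1 on. Active mTORC1 phosphorylates S6 kinases and the 4E-BP proteins, so that translation starts more readily, and it restrains autophagy through ULK1 and lysosomal genes through TFEB. Much of this control is by phosphorylation and location, which neither assay measures.

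Promoter windows were available for 38 of the 45 genes, as 51 windows of 300 bases each from RefSeq (build GRCh38.p14). No window was found for RRAGA, RRAGD, WDR24, MLST8, AKT1S1, DEPTOR and EIF4EBP1. The windows are shown because DNMT3A methylates cytosine in CG pairs, although methylation was not measured in these libraries. The median window of these genes held 27 CG pairs, against 14 in the median of all 35116 windows. The 250 bases upstream of SESN2, DDIT4, PDCD4 and MIOS follow, 5′ to 3′, with each CG in capitals, for genes chosen after their values were seen, SESN2, DDIT4 and PDCD4 for their mRNA differences and MIOS for its footprint difference. They lie at chr1:28259268-28259517, chr10:72273674-72273923, chr10:110871678-110871927 and chr7:7566634-7566883, each on the plus strand, and hold 19, 26, 20 and 19 CG pairs in that order. Their full windows of 300 bases, the length to which the medians refer, hold 25, 30, 26 and 25.
SESN2: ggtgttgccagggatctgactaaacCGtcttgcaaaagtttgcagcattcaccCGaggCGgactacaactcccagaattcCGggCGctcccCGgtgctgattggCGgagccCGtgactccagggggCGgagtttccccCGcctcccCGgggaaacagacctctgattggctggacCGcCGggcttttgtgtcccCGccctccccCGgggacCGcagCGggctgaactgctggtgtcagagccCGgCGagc
DDIT4: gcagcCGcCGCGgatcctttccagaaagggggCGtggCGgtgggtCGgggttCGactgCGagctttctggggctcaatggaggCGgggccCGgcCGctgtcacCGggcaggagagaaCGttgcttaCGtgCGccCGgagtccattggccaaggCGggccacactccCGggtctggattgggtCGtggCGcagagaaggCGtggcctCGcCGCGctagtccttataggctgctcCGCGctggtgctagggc
PDCD4: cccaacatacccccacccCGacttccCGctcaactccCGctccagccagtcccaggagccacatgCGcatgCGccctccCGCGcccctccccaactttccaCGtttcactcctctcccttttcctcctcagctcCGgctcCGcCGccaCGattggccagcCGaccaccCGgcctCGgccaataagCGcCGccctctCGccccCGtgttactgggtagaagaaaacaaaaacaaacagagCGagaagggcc
MIOS: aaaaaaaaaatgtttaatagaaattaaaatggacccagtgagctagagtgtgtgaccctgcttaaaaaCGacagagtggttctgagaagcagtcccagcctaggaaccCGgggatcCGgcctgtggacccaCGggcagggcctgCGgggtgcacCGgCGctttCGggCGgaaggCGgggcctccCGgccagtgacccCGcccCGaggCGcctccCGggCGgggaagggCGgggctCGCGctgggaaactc

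The windows were also searched on both strands for the letters CACGTG, the core of the element that TFEB binds at lysosomal genes, which reads the same on either strand. These letters stood in windows of 7 members, in 13.7% of the members' windows and in 7.26% of all windows. They include a CG pair, and the median window held 27 CG pairs for members and 14 for all genes. The shares were not matched for CG pairs, and whether TFEB binds these windows was not tested. Each match is shown with up to 12 bases on either side, on the strand of the gene and with the motif in capitals, because TFEB is itself among the outputs of mTORC1. FNIP1 holds it 2 times and RRAGB 3 times. The stretches lie, in the order shown, at chr1:38859867-38859896, chr5:131797175-131797204, chr5:131797094-131797123, chr7:100148892-100148921, chr11:72103445-72103474, chr16:138631-138660, chr16:2047859-2047888, chrX:55717622-55717651, chrX:55717712-55717741 and chrX:55717744-55717773. Those of RRAGC, FNIP1, LAMTOR1 and NPRL3 are on the minus strand and the others on the plus strand. A second set of letters, TGATGNAA, which ATF4 can bind, stood in 1 member window, that of TSC2, and in 3.62% of all windows.
RRAGC: aggtgattccggCACGTGacggggcaccac
FNIP1: ccccgcccctgcCACGTGacgggacccgcc
FNIP1: tccgcgcgccgcCACGTGatgcggcccccc
LAMTOR4: agcggctgcaagCACGTGaccggggcctga
LAMTOR1: ctttccccgcatCACGTGcttgcgtgtacg
NPRL3: cccggagcgtggCACGTGggttggtaactg
TSC2: atgcggccccgtCACGTGatgcaaggatcg
RRAGB: ctgagccaaggcCACGTGatgatgacagac
RRAGB: ggtagcggcagtCACGTGacagactccggg
RRAGB: aaggcagatgccCACGTGatcctggcctgc

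In mutant cells the inhibitory factors SESN2 and DDIT4 and the core subunits MTOR, RPTOR and MLST8 had lower mRNA. LAMTOR3, PDCD4, MIOS and RHEB had higher mRNA, as did the other sestrins SESN1 and SESN3, which were not called. The mRNA calls of DDIT4, LAMTOR3 and PDCD4 were kept in every alternative fit that gave an adjusted p. Those of MTOR, MLST8 and MIOS were among the calls that ended in some. Of the 43 genes with enough counts to test in mRNA, 20 were called at an edgeR adjusted p under 0.05, 6 higher and 14 lower in mutant cells. Across all 10756 genes tested, 37.7% were called, 18.9% in each direction, so that a call alone is common in this comparison. Calls lower in mutant cells made up 32.6% of the 43 genes, and calls higher 14.0%. Both mutant values lay below both wild-type values for 22 of the 43 genes (33.9% of all genes) and above them for 14 (34.0% of all genes). The median log2 fold change was -0.10 over these genes and -0.00 over all genes. CASTOR1, with 1 mRNA count in all, and DEPTOR, with 5, had too few counts to test.

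Footprints moved in both directions alike. Of 39 genes tested, 8 were called, 4 higher (MIOS, FNIP1, PDCD4 and EIF4EBP1) and 4 lower (DDIT4, WDR24, LAMTOR5 and EIF4EBP2) in mutant cells. That share of 20.5% stood beside 21.2% of all 9181 genes. Mutant footprints lay above both wild-type values for 12 of the 39 genes (29.5% of all genes) and below them for 15 (29.3% of all genes). SESN3, DEPDC5, RRAGB and RRAGD had too few footprints to test. DESeq2 called 8 of the genes in mRNA (SESN2, NPRL3, RHEB, DDIT4, RPTOR, MLST8, RPS6KB2 and PDCD4) and 1, DDIT4, in footprints, but gave no adjusted p to 10 of the 43 genes in mRNA and 25 of the 39 in footprints. With an assumed coefficient of variation of 10% between cultures, 3 remained in mRNA (LAMTOR3, DDIT4 and PDCD4) and 2 in footprints (MIOS and DDIT4).

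**Figure D1:**
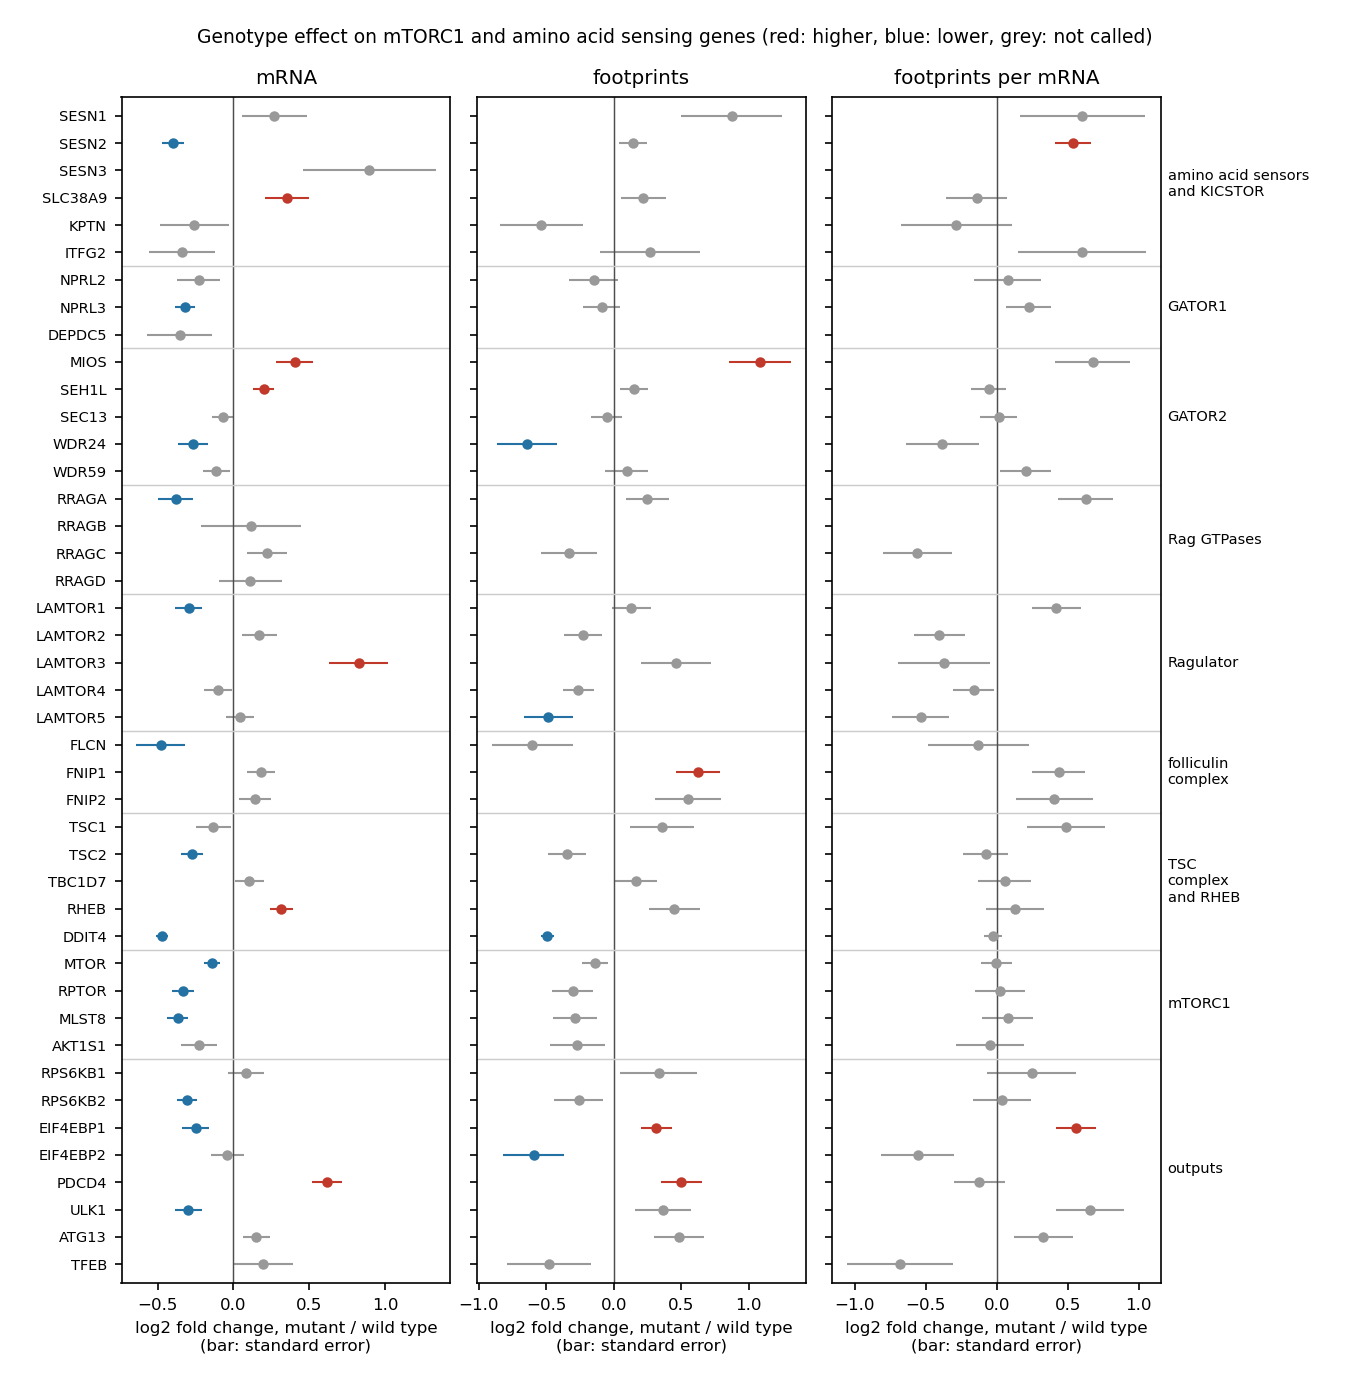
Log2 fold changes of mutant over wild-type cells for the tested genes of each step in mRNA (left), footprints (middle) and footprints per mRNA (right), with bars of 1 standard error either side; red (higher) and blue (lower) points have an edgeR adjusted p under 0.05 and grey points do not. In mRNA 14 points are blue and 6 red, and in footprints per mRNA the 2 coloured points are SESN2 and EIF4EBP1.

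Among the sensors, SESN2 stood out because its transcript and its footprints parted. SESN2 (Sestrin 2, a stress-induced leucine sensor; chr1:28259518-28282491 in GRCh38) had 105 and 109.6 CPM in mutant mRNA libraries, against 139 and 143 CPM in wild-type mRNA libraries (log2 fold change -0.40 ± 0.07, edgeR adjusted p = 4.2e-07; here and below, ± is 1 standard error). Its mutant mRNA values were both below the wild-type values. Its footprints were 172 and 236 CPM in mutant libraries, against 180.2 and 178 CPM in wild-type libraries, with 1 mutant value on either side of the wild-type range (log2 fold change 0.14 ± 0.10, edgeR adjusted p = 0.352). The other sestrins had fewer counts. SESN1 had 12.8 and 14.0 CPM in mutant mRNA libraries, against 10.6 and 11.4 CPM in wild-type mRNA libraries, and 12.6 and 18.1 CPM in mutant footprint libraries, against 6.98 and 8.79 CPM in wild-type footprint libraries. Both its assays were higher in mutant cells without passing the test (mRNA edgeR adjusted p = 0.326, footprints 0.0841). SESN3 had 17 and 15 mRNA counts in mutant libraries, against 9 and 7 in wild-type libraries (edgeR adjusted p = 0.093).

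SLC38A9, the lysosomal arginine sensor, had 32.2 and 30.3 CPM in mutant mRNA libraries, against 26.6 and 22.9 CPM in wild-type mRNA libraries (log2 fold change 0.35 ± 0.14, edgeR adjusted p = 0.038). Its footprints were 75.4 and 59.1 CPM in mutant libraries, against 60.3 and 58.4 CPM in wild-type libraries, which overlapped. The SLC38A9 call ended without mutant replicate 1 (edgeR adjusted p = 0.191) or wild-type replicate 2 (0.373). KPTN and ITFG2, subunits of KICSTOR, had 9.18 to 10.3 and 9.90 to 10.96 mRNA CPM in mutant cells, against 11.4 to 12.1 and 12.3 to 14.2 CPM in wild-type cells. Neither passed the test (edgeR adjusted p = 0.384 for KPTN and 0.219 for ITFG2).

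The 3 GATOR1 subunits all had lower mRNA in mutant cells, and 1 was called. NPRL3 had 121 and 137 CPM in mutant mRNA libraries, against 156 and 164 CPM in wild-type mRNA libraries (log2 fold change -0.32 ± 0.07, edgeR adjusted p = 2.3e-05). Its footprints did not follow beyond the spread, at 97.3 and 98.5 CPM in mutant footprint libraries, against 88.2 and 117 CPM in wild-type footprint libraries (log2 fold change -0.09 ± 0.14, edgeR adjusted p = 0.71). The log2 fold change in mRNA was -0.23 for NPRL2 (edgeR adjusted p = 0.191) and -0.35 for DEPDC5 (0.182).

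GATOR2 was split. MIOS, a GATOR2 subunit (chr7:7566884-7609144), had the largest footprint difference of all 39 genes, with 49.2 and 41.0 CPM in mutant footprint libraries, against 26.6 and 17.6 CPM in wild-type footprint libraries (log2 fold change 1.08 ± 0.23, edgeR adjusted p = 0.00015, a 2.12-fold difference). These values rest on 47 and 25 footprint counts in mutant and 42 and 34 in wild-type libraries. Its mRNA was 45.9 and 39.5 CPM in mutant libraries, against 33.7 and 31.4 CPM in wild-type libraries (log2 fold change 0.40 ± 0.12, edgeR adjusted p = 0.00466), so both assays were higher without overlap. WDR24, a further subunit, was lower in both assays. It had 50.4 and 52.3 CPM in mutant mRNA libraries, against 69.2 and 55.8 CPM in wild-type mRNA libraries (log2 fold change -0.27 ± 0.10, edgeR adjusted p = 0.0267), and its footprints were 26.2 and 32.8 CPM in mutant libraries, against 42.5 and 47.1 CPM in wild-type libraries (log2 fold change -0.64 ± 0.22, edgeR adjusted p = 0.0252). SEH1L, which also serves in the nuclear pore, had 137 and 142 CPM in mutant mRNA libraries, against 123 and 121 CPM in wild-type mRNA libraries (log2 fold change 0.20 ± 0.07, edgeR adjusted p = 0.0139). SEC13, shared with the COPII vesicle coat, and WDR59 had log2 fold changes in mRNA of -0.07 and -0.11, with edgeR adjusted p-values of 0.461 and 0.316. The footprint call of MIOS ended without mutant footprint replicate 1 (edgeR adjusted p = 0.15). Its mRNA call ended without mutant replicate 1 (0.161) or wild-type replicate 2 (0.106). WDR24 lost its mRNA call without mutant replicate 1 (0.151) or wild-type replicate 1 (0.504), and its footprint call without mutant replicate 1 (0.415), mutant replicate 2 (0.0634) or wild-type replicate 2 (0.149). SEH1L lost its call without mutant replicate 2 (0.0548) or either wild-type replicate (0.0618 and 0.145).

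Of the Rag GTPases, which pair as RRAGA or RRAGB with RRAGC or RRAGD, RRAGA was called. It had 36.2 and 39.8 CPM in mutant mRNA libraries, against 48.5 and 49.996 CPM in wild-type mRNA libraries (log2 fold change -0.38 ± 0.12, edgeR adjusted p = 0.00414). Its footprints were 86.9 and 62.4 CPM in mutant libraries, against 69.2 and 61.5 CPM in wild-type libraries, with 1 mutant value inside the wild-type range. RRAGC had 37.1 and 33.1 CPM in mutant mRNA libraries, against 30.5 and 30.04 CPM in wild-type mRNA libraries, without passing the test (edgeR adjusted p = 0.176). RRAGB and RRAGD had log2 fold changes in mRNA of 0.12 and 0.11, with overlapping libraries. The RRAGA call ended without mutant replicate 1 (edgeR adjusted p = 0.0868) or wild-type replicate 2 (0.0781). A named pseudogene of RRAGA could share its reads.

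Ragulator, the Rag anchor on the lysosome, went both ways. LAMTOR3, which forms a pair with LAMTOR2 in the complex, had 18.9 and 19.6 CPM in mutant mRNA libraries, against 10.9 and 10.8 CPM in wild-type mRNA libraries (log2 fold change 0.83 ± 0.20, edgeR adjusted p = 0.00021, a 1.77-fold difference). This call was kept under every alternative that gave it an adjusted p (DESeq2 gave none), although reads of its 2 named pseudogenes cannot be told apart from its own. LAMTOR3 footprints were 23.0 and 39.4 CPM in mutant libraries, against 19.7 and 22.8 CPM in wild-type libraries, higher without overlap but not called (edgeR adjusted p = 0.207). LAMTOR1, the subunit that ties the complex to the membrane, had 63.9 and 76.2 CPM in mutant mRNA libraries, against 83.1 and 87.4 CPM in wild-type mRNA libraries (log2 fold change -0.29 ± 0.09, edgeR adjusted p = 0.00355), and its footprints were 91.1 and 85.4 CPM in mutant libraries, against 81.2 and 81.2 CPM in wild-type libraries. The order of the groups was thus reversed between its assays, with no footprint call (edgeR adjusted p = 0.572). LAMTOR5 had 70.0 and 71.4 CPM in mutant mRNA libraries, against 71.5 and 65.9 CPM in wild-type mRNA libraries, which overlapped. Its footprints were 49.2 and 42.7 CPM in mutant libraries, against 67.3 and 63.6 CPM in wild-type libraries (log2 fold change -0.48 ± 0.18, edgeR adjusted p = 0.0411). LAMTOR2 and LAMTOR4 had log2 fold changes in mRNA of 0.17 and -0.10 and in footprints of -0.23 and -0.26, none of them called. The LAMTOR1 call ended without mutant mRNA replicate 1 (edgeR adjusted p = 0.247) or wild-type mRNA replicate 2 (0.116). The LAMTOR5 footprint call ended without any 1 of the 4 footprint libraries (0.194 and 0.206 without mutant replicates 1 and 2, 0.104 and 0.077 without wild-type replicates 1 and 2).

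Folliculin (FLCN) and its partners FNIP1 and FNIP2 form the complex that lets RRAGC or RRAGD take its active form. FLCN was lower and FNIP1 higher in mutant cells, each in 1 assay by the test. FLCN had 16.9 and 20.7 CPM in mutant mRNA libraries, against 25.1 and 26.7 CPM in wild-type mRNA libraries (log2 fold change -0.48 ± 0.16, edgeR adjusted p = 0.0101). Its footprints, 14.7 and 16.4 CPM in mutant footprint libraries, against 20.3 and 25.9 CPM in wild-type footprint libraries, were also lower but not called (edgeR adjusted p = 0.145). FNIP1 footprints were 81.6 and 75.5 CPM in mutant libraries, against 53.3 and 49.6 CPM in wild-type libraries (log2 fold change 0.63 ± 0.16, edgeR adjusted p = 0.00236). FNIP1 mRNA was 68.8 and 75.0 CPM in mutant libraries, against 65.3 and 61.4 CPM in wild-type libraries, without a call (edgeR adjusted p = 0.108). FNIP2 showed the same order in both assays, with log2 fold changes of 0.14 in mRNA and 0.55 in footprints, neither called. The FLCN call ended without mutant mRNA replicate 1 (edgeR adjusted p = 0.206) or wild-type mRNA replicate 2 (0.129), and the FNIP1 call without mutant footprint replicate 1 (0.178).

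DDIT4 (REDD1), a stress-induced activator of the TSC complex and so a brake on mTORC1, was the most abundant and most precisely measured of the genes (chr10:72273924-72276036). It had 606 and 637 CPM in mutant mRNA libraries, against 870.1 and 852 CPM in wild-type mRNA libraries (log2 fold change -0.47 ± 0.04, edgeR adjusted p = 4.4e-28). Its footprints were 1065 and 1203 CPM in mutant libraries, against 1578 and 1581 CPM in wild-type libraries (log2 fold change -0.49 ± 0.05, edgeR adjusted p = 7.1e-15). Mutant values lay below wild-type values in all libraries of both assays, by similar amounts, and DDIT4 was called in both under every alternative run. The ratio of footprints to mRNA was 1.71 and 1.94 in mutant cells, against 1.83 and 1.84 in wild-type cells (log2 difference -0.03 ± 0.06, edgeR adjusted p = 0.878).

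TSC2, the subunit that inactivates RHEB, had 111 and 109.9 CPM in mutant mRNA libraries, against 133 and 134 CPM in wild-type mRNA libraries (log2 fold change -0.27 ± 0.07, edgeR adjusted p = 0.0009). Its footprints were 77.5 and 90.3 CPM in mutant libraries, against 102 and 108 CPM in wild-type libraries, lower without passing the test (edgeR adjusted p = 0.0648). RHEB had 117 and 111 CPM in mutant mRNA libraries, against 95.2 and 89.5 CPM in wild-type mRNA libraries (log2 fold change 0.32 ± 0.08, edgeR adjusted p = 0.0003), and its footprints were 60.7 and 47.6 CPM in mutant libraries, against 39.3 and 41.9 CPM in wild-type libraries (edgeR adjusted p = 0.0779). The TSC2 mRNA call was lost with DESeq2 (adjusted p = 0.0649) and with the trend on local gene density removed, as described below, where its log2 fold change was -0.05 (edgeR adjusted p = 0.623). The RHEB call was kept in both (adjusted p = 0.0492 with DESeq2), and both calls were lost with an assumed coefficient of variation of 10%. TSC1 and TBC1D7, the other TSC subunits, had log2 fold changes in mRNA of -0.13 and 0.10, and their libraries overlapped. RHEB has 3 named pseudogenes, and TSC2 overlaps PKD1 in the annotation.

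**Figure D2:**
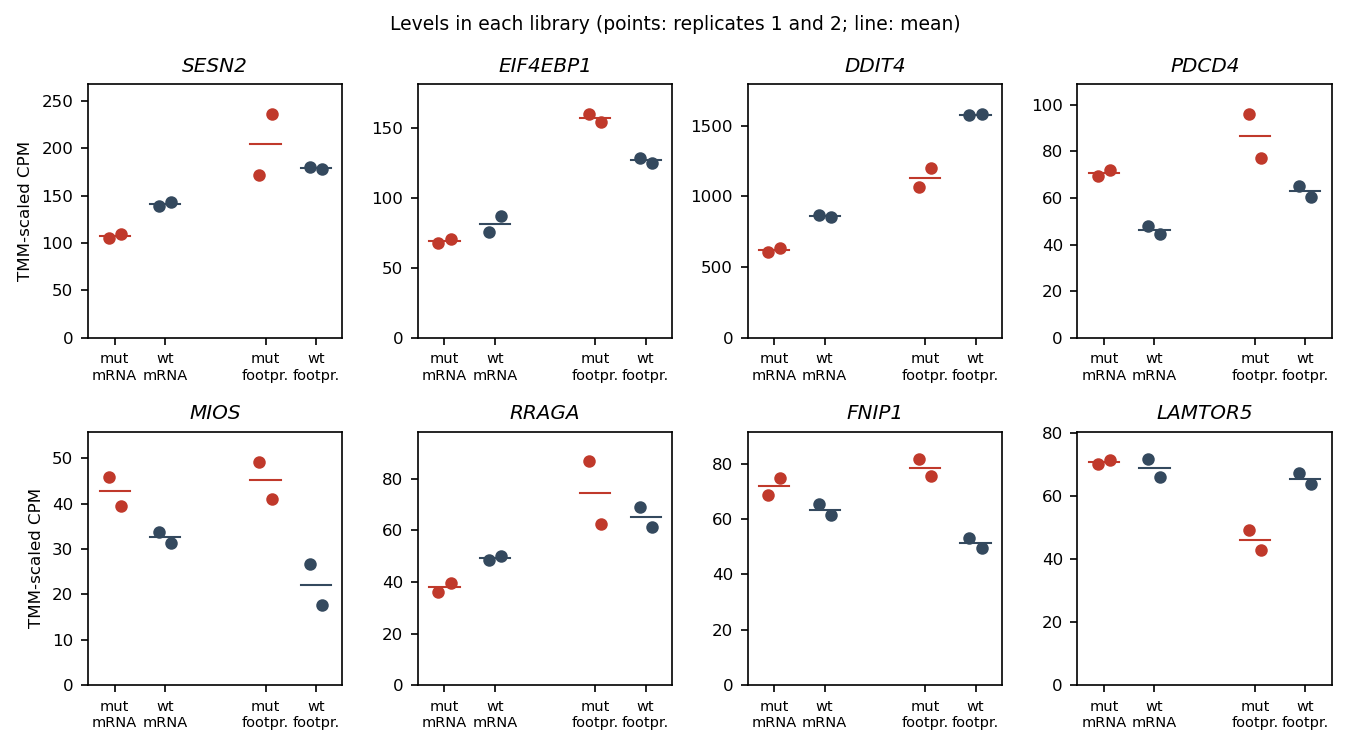
TMM-scaled CPM in each library, mutant left of wild type, for 8 of the genes, with a line at the mean of 2 libraries and each axis from 0. Both mutant points of DDIT4 lie below both wild-type points in mRNA and in footprints, whereas for SESN2 this holds in mRNA alone.

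All 4 tested subunits of mTORC1 had lower mRNA in mutant cells, and 3 were called, beside 18.9% of all genes called lower. MTOR had 279.8 and 274 CPM in mutant mRNA libraries, against 304 and 306 CPM in wild-type mRNA libraries (log2 fold change -0.14 ± 0.05, edgeR adjusted p = 0.0224). RPTOR had 100.3 and 113 CPM in mutant mRNA libraries, against 131 and 136 CPM in wild-type mRNA libraries (log2 fold change -0.33 ± 0.07, edgeR adjusted p = 4.9e-05). MLST8 had 110.4 and 114 CPM in mutant mRNA libraries, against 144 and 146 CPM in wild-type mRNA libraries (log2 fold change -0.37 ± 0.07, edgeR adjusted p = 2.7e-06). None of these ranges overlapped. AKT1S1 (PRAS40), an inhibitory subunit, had 36.7 and 38.5 CPM in mutant mRNA libraries, against 42.0 and 45.5 CPM in wild-type mRNA libraries, short of the test (edgeR adjusted p = 0.117). Footprints of the 4 genes were lower on average, with log2 fold changes of -0.14 (MTOR), -0.30 (RPTOR), -0.29 (MLST8) and -0.27 (AKT1S1), and edgeR adjusted p-values from 0.148 to 0.363. The MTOR call, the smallest difference called among the genes, ended without mutant replicate 2 (edgeR adjusted p = 0.0763) or wild-type replicate 1 (0.114) or 2 (0.21), and also with DESeq2 (adjusted p = 0.178) or no filter on low counts (0.0617). The MLST8 call ended with the gene density trend removed (log2 fold change -0.16, edgeR adjusted p = 0.0846), whereas RPTOR kept its call.

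The outputs were mixed. PDCD4, an inhibitor of the helicase eIF4A that S6 kinase marks for destruction, had 69.3 and 71.9 CPM in mutant mRNA libraries, against 47.9 and 44.4 CPM in wild-type mRNA libraries (log2 fold change 0.62 ± 0.10, edgeR adjusted p = 2.5e-08). Its footprints were 96.3 and 77.1 CPM in mutant libraries, against 65.4 and 60.5 CPM in wild-type libraries (log2 fold change 0.50 ± 0.15, edgeR adjusted p = 0.0107). Both assays were higher in mutant cells without overlap, and the mRNA call was kept under every alternative run. EIF4EBP1 (4E-BP1), a repressor of cap-dependent initiation that mTORC1 inactivates, went opposite ways in the 2 assays. It had 67.5 and 70.9 CPM in mutant mRNA libraries, against 75.7 and 87.0 CPM in wild-type mRNA libraries (log2 fold change -0.25 ± 0.09, edgeR adjusted p = 0.0176). Its footprints were 160.1 and 154 CPM in mutant libraries, against 129 and 125 CPM in wild-type libraries (log2 fold change 0.32 ± 0.11, edgeR adjusted p = 0.0335). Its relative EIF4EBP2 had 48.8 and 45.4 CPM in mutant mRNA libraries, against 43.8 and 52.2 CPM in wild-type mRNA libraries, which overlapped, and its footprints were 31.4 and 23.0 CPM in mutant libraries, against 40.0 and 44.5 CPM in wild-type libraries (log2 fold change -0.59 ± 0.23, edgeR adjusted p = 0.0469). The last values rest on 30 and 14 counts in mutant libraries. EIF4EBP1 has 2 and EIF4EBP2 has 3 named pseudogenes.

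RPS6KB2, the gene of S6 kinase 2, had 129 and 135 CPM in mutant mRNA libraries, against 155 and 169 CPM in wild-type mRNA libraries (log2 fold change -0.30 ± 0.07, edgeR adjusted p = 4.5e-05). RPS6KB1, the gene of S6 kinase 1, had 43.6 and 41.6 CPM in mutant mRNA libraries, against 39.3 and 41.0 CPM in wild-type mRNA libraries (edgeR adjusted p = 0.616). ULK1, the kinase that starts autophagy, had 68.4 and 67.1 CPM in mutant mRNA libraries, against 78.9 and 86.5 CPM in wild-type mRNA libraries (log2 fold change -0.30 ± 0.09, edgeR adjusted p = 0.00382), and its footprints overlapped. ATG13, its partner, had 63.8 and 49.2 CPM in mutant footprint libraries, against 42.5 and 40.9 CPM in wild-type footprint libraries, just outside the threshold (edgeR adjusted p = 0.0506). TFEB, the lysosomal transcription factor, had 14.8 and 16.6 CPM in mutant mRNA libraries, against 14.5 and 13.0 CPM in wild-type mRNA libraries (edgeR adjusted p = 0.446).

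Several calls among the outputs ended when 1 library was left out, a fit that leaves 1 library in a group. Their log2 fold changes kept their sign. PDCD4 lost its footprint call without mutant replicate 1 (edgeR adjusted p = 0.479) or wild-type replicate 2 (0.09). EIF4EBP1 lost its mRNA call without mutant replicate 1 (0.136) or wild-type replicate 2 (0.483), and its footprint call without mutant replicate 1 (0.344), mutant replicate 2 (0.116) or wild-type replicate 2 (0.132). EIF4EBP2 lost its footprint call without the same libraries (0.145, 0.273 and 0.216). RPS6KB2 and ULK1 lost their mRNA calls without wild-type replicate 2 (0.0613 and 0.188).

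Footprints per mRNA, a relative measure of the ribosomes on a transcript, differed between genotypes for SESN2 and EIF4EBP1. Both were higher in mutant cells, 2 of 39 genes tested, beside 4.16% of all 9166 genes called in either direction and 1.67% called higher. The ratio of footprint CPM to mean mRNA CPM for SESN2 was 1.60 and 2.20 in mutant cells, against 1.28 and 1.26 in wild-type cells (log2 difference 0.54 ± 0.13, 1.45-fold, edgeR adjusted p = 0.00485). Both mutant ratios exceeded both wild-type ratios, and the mutant ratios lay further apart than the wild-type ratios. For EIF4EBP1 the ratio was 2.31 and 2.23 in mutant cells, against 1.58 and 1.54 in wild-type cells (log2 difference 0.56 ± 0.14, 1.47-fold, edgeR adjusted p = 0.0103). In SESN2 the mRNA was lower with no footprint call, and in EIF4EBP1 the assays were called in opposite directions. edgeR called 0 of the 39 genes lower (2.49% of all genes), with 4 at an unadjusted p under 0.05. In either direction, edgeR gave an unadjusted p under 0.05 to 11 of the 39 genes and to 1557 of all 9166. DESeq2 called 0 in either direction, with 4 at an unadjusted p under 0.05 and no adjusted value for 23 genes. With the assumed coefficient of variation of 10%, 0 were called, with 5 at an unadjusted p under 0.05. For these last fits, all genes at that unadjusted level were not counted. Next in order of p was RRAGA, with ratios of 2.29 and 1.64 in mutant cells, against 1.40 and 1.25 in wild-type cells (log2 difference 0.62, edgeR adjusted p = 0.0523). The SESN2 call ended without mutant footprint replicate 2 (edgeR adjusted p = 0.282). The EIF4EBP1 call ended without mutant footprint replicate 1 (0.182) or wild-type mRNA replicate 2 (0.124).

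Within wild-type cells the genes spread widely in footprints per mRNA. Set against the median gene, the log2 ratio ran from -1.56 in RPS6KB2 to 1.23 in SLC38A9. Of 39 genes, 14 stood above the median gene and 16 below it by edgeR, beside 34.9% above and 35.6% below over all genes, or 70.5% together. Ragulator subunits LAMTOR2 (1.23 ± 0.11), LAMTOR4 (1.11 ± 0.09) and LAMTOR3 (0.94 ± 0.22) followed SLC38A9 (1.23 ± 0.14) at the top, and DDIT4 came next at 0.84 ± 0.04. At the bottom, RPS6KB2 (-1.56 ± 0.10) was followed by ULK1 (-1.24 ± 0.13), RHEB (-1.21 ± 0.12), RPS6KB1 (-1.18 ± 0.17) and FNIP2 (-1.18 ± 0.16). The last 4 of these did not differ beyond their errors. MTOR (-0.59), RPTOR (-0.64) and MLST8 (-0.96) were all below the median gene. These are log2 ratios of 2 library types, and they do not give ribosomes per molecule. Counts were not corrected for the lengths of coding sequence and untranslated ends. A gene's place in this order may also depend on these lengths, which was not tested.

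**Figure D3:**
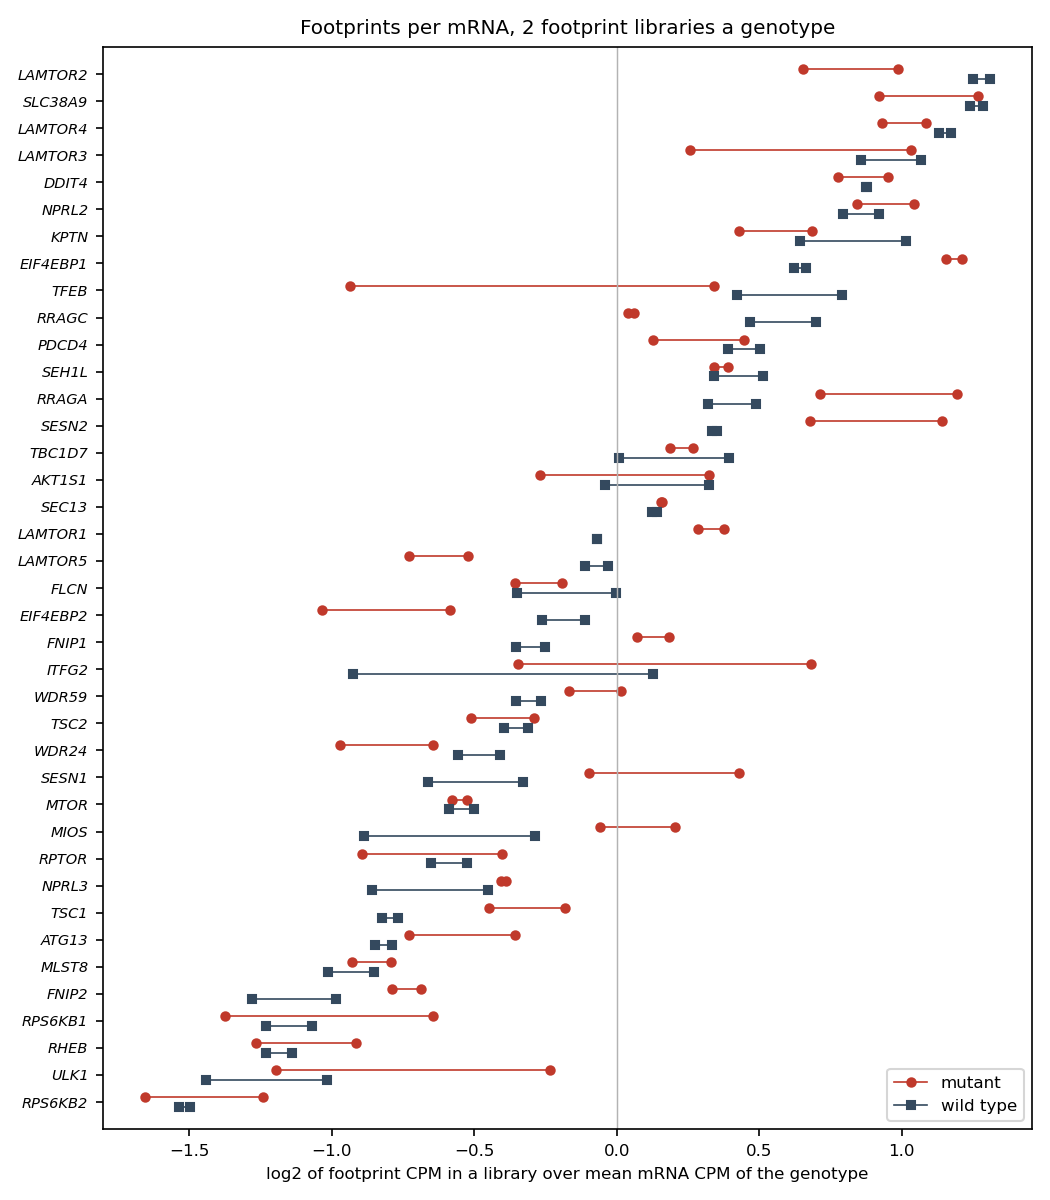
Log2 ratio of footprint CPM in a library to the mean mRNA CPM of its genotype for the 39 genes tested, with mutant points (circles) drawn above wild-type points (squares), a line joining the 2 libraries, and genes in order of the wild-type mean. LAMTOR2 and SLC38A9 stand at one end and RPS6KB2 at the other, and the mutant ratios of SESN2 and EIF4EBP1 both exceed their wild-type ratios.

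Genes next to the pathway, listed by role, also moved in both directions. Of 18 further mTORC1 partners and sensors tested in mRNA, 3 were called higher and 5 lower in mutant cells by edgeR (18.9% of all genes in each direction), and in footprints 3 of 17 were higher and 4 lower (10.3% higher and 10.9% lower over all genes). UBE3A, a ubiquitin ligase that acts on many proteins, had 84.6 and 80.8 CPM in mutant mRNA libraries, against 55.3 and 59.0 CPM in wild-type mRNA libraries (log2 fold change 0.53 ± 0.09, edgeR adjusted p = 2.1e-07). ZNF598, known as a sensor of collided ribosomes, had 148 and 169.6 CPM in mutant mRNA libraries, against 218 and 207 CPM in wild-type mRNA libraries (log2 fold change -0.42 ± 0.06, edgeR adjusted p = 2.0e-10). BORCS6, a subunit of the lysosome-positioning complex BORC, had 7.87 and 3.82 CPM in mutant mRNA libraries, against 15.1 and 13.7 CPM in wild-type mRNA libraries (log2 fold change -1.25 ± 0.24, edgeR adjusted p = 4.0e-06). The BORCS6 values rest on 35 and 15 mutant counts, and the log2 fold change was -1.89 without mutant replicate 1 and -0.85 without mutant replicate 2. Of 4 mTORC2 genes tested, 2 were called higher in mRNA, beside the same 18.9% of all genes. RICTOR, its defining subunit, had 141 and 142 CPM in mutant mRNA libraries, against 121 and 118 CPM in wild-type mRNA libraries (log2 fold change 0.25 ± 0.07, edgeR adjusted p = 0.00226), and MAPKAP1 (SIN1) had a log2 fold change of 0.22 (edgeR adjusted p = 0.022). The RICTOR call ended without wild-type replicate 2 (0.0707), and the MAPKAP1 call without mutant replicate 1 (0.346) or wild-type replicate 2 (0.577). Both also ended with DESeq2 (adjusted p = 0.0859 for RICTOR and 0.265 for MAPKAP1) and with the gene density trend removed, where the log2 fold change was 0.10 for RICTOR and 0.07 for MAPKAP1. MAPKAP1 lost its call without a filter on low counts as well (0.0705).

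Upstream, 2 of 16 insulin receptor, PI3K and AKT genes were called higher and 5 lower in mRNA, again beside 18.9% of all genes each way. AKT1, the kinase that inhibits the TSC complex, had 184 and 184 CPM in mutant mRNA libraries, against 225 and 230.5 CPM in wild-type mRNA libraries (log2 fold change -0.31 ± 0.06, edgeR adjusted p = 1.9e-06), and AKT2 had 108 and 109 CPM in mutant mRNA libraries, against 140.4 and 132 CPM in wild-type mRNA libraries (log2 fold change -0.32 ± 0.07, edgeR adjusted p = 7.1e-05). PIK3CB, a catalytic PI3K subunit, had 87.9 and 91.9 CPM in mutant footprint libraries, against 48.2 and 55.3 CPM in wild-type footprint libraries (log2 fold change 0.78 ± 0.16, edgeR adjusted p = 7.2e-05), and its footprints per mRNA were 0.580 and 0.606 in mutant cells, against 0.364 and 0.418 in wild-type cells (log2 difference 0.57 ± 0.17, edgeR adjusted p = 0.0368). The PIK3CB call in footprints per mRNA ended without either mutant footprint library, wild-type footprint replicate 1 or wild-type mRNA replicate 1. Its log2 difference was 0.48 to 0.68 with 1 library left out. The same call also ended with DESeq2, without a filter on low counts and with an assumed coefficient of variation of 10%. Of 9 genes of the AMPK and LKB1 branch, which restrains mTORC1 when energy is low, 1 was called higher and 1 lower in mRNA, with the same share over all genes. CAB39, a cofactor of LKB1, had 133 and 135 CPM in mutant mRNA libraries, against 104 and 98.9 CPM in wild-type mRNA libraries (log2 fold change 0.40 ± 0.07, edgeR adjusted p = 7.2e-07), and STK11, the gene of LKB1, had 103 and 109.6 CPM in mutant mRNA libraries, against 126 and 136 CPM in wild-type mRNA libraries (log2 fold change -0.31 ± 0.07, edgeR adjusted p = 0.00019). STK11 lost this call without wild-type replicate 2 (edgeR adjusted p = 0.0687) and with the gene density trend removed (log2 fold change -0.11, edgeR adjusted p = 0.288). STRADA, the pseudokinase that activates LKB1, had 37.7 and 46.0 CPM in mutant footprint libraries, against 27.3 and 24.3 CPM in wild-type footprint libraries (log2 fold change 0.67 ± 0.23, edgeR adjusted p = 0.0218), a call that was lost without mutant replicate 1 (0.12), mutant replicate 2 (0.181) or wild-type replicate 2 (0.148).

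Of 26 further mTORC1 effectors tested in mRNA, 3 were called higher and 9 lower in mutant cells, and in footprints 1 of 25 was higher and 4 lower. Over all genes, 18.9% were called in each direction in mRNA, and in footprints 10.3% higher and 10.9% lower. RB1CC1 (FIP200), a partner of ULK1 and ATG13, had 247 and 215 CPM in mutant mRNA libraries, against 170.3 and 174 CPM in wild-type mRNA libraries (log2 fold change 0.43 ± 0.06, edgeR adjusted p = 2.0e-11). FOXK2, a transcription factor, had 193 and 208 CPM in mutant mRNA libraries, against 258 and 267 CPM in wild-type mRNA libraries (log2 fold change -0.39 ± 0.06, edgeR adjusted p = 1.2e-10). MTHFD2, a mitochondrial folate enzyme whose transcription mTORC1 raises through ATF4, had 423 and 425 CPM in mutant mRNA libraries, against 373 and 378 CPM in wild-type mRNA libraries (log2 fold change 0.18 ± 0.05, edgeR adjusted p = 0.00108). Its footprints went the other way, at 1253 and 1280.3 CPM in mutant footprint libraries, against 1530.4 and 1657 CPM in wild-type footprint libraries (log2 fold change -0.34 ± 0.05, edgeR adjusted p = 1.3e-08). The MTHFD2 ratio of footprints to mRNA was 2.96 and 3.02 in mutant cells, against 4.08 and 4.42 in wild-type cells (log2 difference -0.52 ± 0.07, edgeR adjusted p = 1.9e-08), opposite in sign to SESN2 and EIF4EBP1.

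Where the genes lie on the chromosomes moved with their mRNA difference. Across 10616 genes, the log2 fold change fell with the number of protein-coding genes within 500 kb (Spearman's rho -0.43 over genes, which share libraries and neighbours), and over the 43 members rho was -0.36. All 5 members with 30 or more such neighbours (AKT1S1, LAMTOR4, WDR24, MLST8 and TSC2) had lower mRNA in mutant cells, 3 of them called. Of the 17 members with 0 to 9 neighbours, 12 had higher mRNA, 5 were called higher and 4 lower. The median log2 fold change of all genes was -0.22 in the densest group and 0.16 in the sparsest, beside -0.27 and 0.14 for the members there. The members thus went the way of all genes in these groups. Shares of all genes called, higher or lower in each group were not counted. After the trend was removed, 13 members were called in mRNA, 12 of them called before, and the calls of MIOS, SEH1L, WDR24, SLC38A9, TSC2, MLST8, RPS6KB2 and EIF4EBP1 ended. Of these, the log2 fold change in mRNA came closest to 0 in TSC2 (-0.05, beside -0.27 before removal), WDR24 (-0.05, beside -0.27) and SEH1L (0.07, beside 0.20). It was -0.16 for MLST8 (beside -0.37) and -0.16 for RPS6KB2 (beside -0.30). Larger parts remained in MIOS (0.26, beside 0.40), SLC38A9 (0.27, beside 0.35) and EIF4EBP1 (-0.20, beside -0.25). LAMTOR2 was gained, while SESN2, NPRL3, RRAGA, LAMTOR1, LAMTOR3, FLCN, RHEB, DDIT4, MTOR, RPTOR, PDCD4 and ULK1 kept their calls. In footprints 5 members were called after removal, with RHEB gained and the calls of WDR24, LAMTOR5, EIF4EBP2 and PDCD4 ended. Their remaining log2 fold changes in footprints were -0.48 for WDR24 (beside -0.64 before removal), -0.45 for LAMTOR5 (-0.48), -0.57 for EIF4EBP2 (-0.59) and 0.40 for PDCD4 (0.50), so that LAMTOR5 and EIF4EBP2 hardly changed in size. These counts of members after removal are not set beside a share of all genes, so they do not show whether members kept calls more often. The part of the trend in each gene's difference was not tested further.

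**Figure D4:**
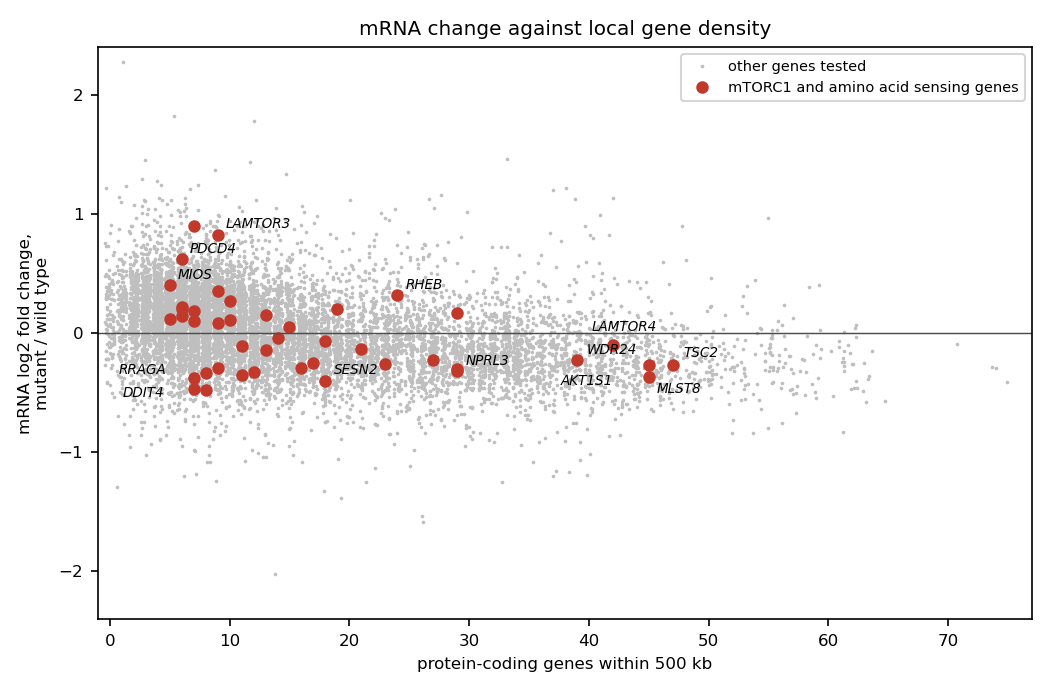
Log2 fold change in mRNA of mutant over wild-type cells against the number of protein-coding genes within 500 kb, for all genes tested with a position (grey) and for the mTORC1 and amino acid sensing genes (red). The red points with 30 or more neighbours all lie below 0, and most of those with fewer than 10 lie above it.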

How the data were processed

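RNA-seq and ribosome profiling of cells labelled THP-1 gave 1 count file a library, 8 in all. Per the labels' protocols, mRNA libraries came from TRIzol RNA copied with oligo(dT), and footprints were cut with RNase I, selected by size and depleted of ribosomal RNA. The deposited values are whole-number read counts per Ensembl gene, not normalized. Per the submitters' processing notes, hg38 and GRCh38 were used with featureCounts, STAR, Bowtie2, Trimmomatic and cutadapt. Strand, annotation release and multiply matching reads are not described there, so genes that overlap another gene (22 of the 45) or have named pseudogenes (7) are uncertain. Of 20453 IDs, 19827 were given a gene symbol. Positions and promoters are from RefSeq (GRCh38.p14), matched by symbol.

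edgeR 4.0.16 in R 4.3.3 (quasi-likelihood test, TMM factors within each assay, filterByExpr by genotype) was fitted on whole tables, with Benjamini-Hochberg adjustment over all genes and calls at an adjusted p under 0.05. For footprints per mRNA, genotype by assay was the tested term over 8 libraries, and within wild-type cells the assay term. Levels are TMM-scaled CPM. The labels do not say that replicates were separate cultures; reads carry no molecular identifiers, and floors cover counting error only. Values in every library are given for genes called in footprints or in the interaction, for up to 15 mRNA calls with a mean count of at least 50, and for the most counted gene of each step. Values of other members were added after they were seen, and outside the list up to 3 called genes per list are named. The members, lists and tests were chosen with earlier results of these data known. Alternatives were RLE factors, DESeq2 1.42.0, other filters on low counts, a replicate block, an assumed coefficient of variation of 10%, removal of the gene density trend (loess, span 0.5) and leaving out each library. The procedure was tested on simulated counts with a spread close to that fitted between these libraries. That test cannot show how calls would hold if cultures varied more.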

Additional observations from a re-analysis of the deposited data

Results flagged for a closer look

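The genotype difference of SESN2 itself differed between the assays, with a log2 difference of 0.54 in footprints over mRNA by edgeR's interaction term (adjusted p = 0.00485), higher in both mutant footprint libraries than in both wild-type libraries once divided by mRNA. The same held for EIF4EBP1, with a log2 difference of 0.56 (edgeR adjusted p = 0.0103). The explanation of either was not tested. Both mutant footprint libraries are the shallowest, and SESN2 rests on 164 and 144 footprint counts there and EIF4EBP1 on 153 and 94.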

How the results depend on the processing

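No named result changed sign in any alternative fit that tested it and gave it an adjusted p. The signs in other fits were not checked. Of 562 repeated values of named calls between genotypes, 414 kept their side of the threshold and 148 lost it. Of those lost, 44 were with an assumed coefficient of variation of 10% and 59 with 1 library left out. DESeq2 ended 19, removal of the gene density trend 17 and no filter on low counts 9. RLE factors and the replicate block ended none of 51. A mean count of at least 50 ended none of the 47 it could test. It left the footprint calls of MIOS, EIF4EBP2 and STRADA and the mRNA call of BORCS6 untested. In mRNA the 4060 calls over all genes became 1467 with DESeq2 and 313 with the assumed coefficient of variation, and the 20 calls of members became 8, 3 and, without the density trend, 13. In footprints the 1950 calls became 397 with DESeq2 and 288 with the assumed coefficient of variation, and the 8 calls of members became 1, 2 and, without the density trend, 5. In footprints per mRNA the 381 calls became 123 with DESeq2 and 13 with the assumed coefficient of variation, and the 2 calls of members became 0 with each, with 4 and 5 members at an unadjusted p under 0.05. The cause of these shifts was not tested, but DESeq2 gave no adjusted p to 10, 25 and 23 members in the 3 comparisons. The share of calls higher in mutant cells was 33.5% with DESeq2 in footprints, beside 48.5%, and in footprints per mRNA 29.5% without a filter and 23.1% with the assumed coefficient of variation, beside 40.2%. With 1 library left out, calls over all genes ran from 2280 to 3838 in mRNA, 274 to 1799 in footprints and 142 to 448 in footprints per mRNA, and calls of members from 10 to 18, 1 to 7 and 1 to 3, fewest in mRNA without wild-type replicate 2 and in footprints without mutant replicate 1. Within wild-type cells, 27 to 31 members were called with 1 library left out, beside 30. With the replicate number as a block, calls over all genes were 4168 in mRNA, 2076 in footprints, 546 in footprints per mRNA and 6512 within wild-type cells, and members numbered 20, 8, 3 and 30; same-numbered libraries share only a number in the labels, and their deviations correlated at 0.032 to 0.15 over 5250 genes. The shallow mutant footprint libraries limit members with few footprints, and 4 members could not be tested there that were tested in mRNA.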

Other observations

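Ratios in mutant cells spread more than in wild-type cells for several genes with few footprints. TFEB had footprint to mRNA ratios of 1.27 and 0.522 in mutant cells, against 1.34 and 1.73 in wild-type cells, from 19 and 5 mutant footprint counts. ULK1 had ratios of 0.850 and 0.436 in mutant cells, against 0.368 and 0.494 in wild-type cells, and its interaction was called by edgeR when mutant or wild-type footprint replicate 2 was left out. SESN3 had 8 and 4 footprint counts in mutant libraries, against 2 and 0 in wild-type libraries, and was called in footprints once the filter on low counts was dropped.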
